A study of Mus musculus with 8 samples.

Results

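The Wnt genes described here are 46 mouse genes that encode Wnt ligands, their receptors, secreted and intracellular inhibitors, the R-spondin system and the transcriptional effectors of the pathway. They were chosen by symbol, and all 46 were found among the 52636 genes of the count table. The RNA came from bone marrow mesenchymal stem/progenitor cells (MSPCs), the stromal cells that produce Cxcl12 and Kit ligand for blood progenitors. Bulk RNA sequencing compared 4 CTR mice (Flk2-cre+ Cxcr4fl/+) with 4 cKO mice (Flk2-cre+ Cxcr4fl/fl) to ask whether the niche transcriptome differs when multipotent progenitors and their progeny lack Cxcr4. All 8 mice were C57BL/6 and carried the Flk2-cre transgene, which is inserted in the Y chromosome and is used to recombine in multipotent progenitors and the blood cells made from them. They also carried a Kitl allele that expresses GFP, since cells were gated as CD45- Ter119- CD31- CD144- PDGFRα+ SCF-GFP+ and sorted again through the same gate. The paper treats the Kitl GFP/+ genotype as haploinsufficient for Kitl. In cKO mice it lowered membrane-bound Kit ligand to the wild-type level and blood stem cell numbers to physiological levels. The sample labels give an age of 6 weeks, and the methods give an older range for all mice.

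Wnt ligands bind Frizzled receptors together with LRP5 or LRP6 and stabilize β-catenin, which then acts with TCF/LEF factors on target genes, or they bind Frizzled, ROR1 or ROR2 without β-catenin. SFRP, WIF1 and DKK proteins hinder ligands or co-receptors outside the cell. The ubiquitin ligases ZNRF3 and RNF43 remove Frizzled from the surface, and R-spondins with LGR4 or LGR5 block these ligases. In bone and marrow stroma the pathway is known for promoting osteoblast over adipocyte fate.

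The 8 libraries held between 31047344 and 38216877 counts. The sorted population had the markers of its label, since all 9 MSPC marker genes (among them Lepr, Cxcl12, Kitl and Adipoq) were counted in every library, with a summed value of 53039.6 to 65343.2 CPM (counts normalized to library size, with TMM scaling) in CTR and 54192.6 to 66081.6 CPM in cKO. Endothelial markers summed to 5.05 to 14.2 CPM in CTR and 5.36 to 8.95 CPM in cKO, with Tek at 0 in all libraries, and hematopoietic markers to 46.8 to 135.0 CPM and 92.6 to 159.2 CPM, with Cd3e at 0. Chondrocyte markers summed to 67.7 to 117.4 CPM and 55.3 to 96.7 CPM, with Acan, Col9a1 and Matn1 at 0, smooth muscle and pericyte markers to 26.1 to 66.1 CPM and 13.4 to 43.3 CPM, and osteoblast markers to 8298.5 to 12194.8 CPM and 8931.9 to 14339.0 CPM. The counts of Cxcr4 itself ranged from 4 to 19 in CTR libraries and from 0 to 12 in cKO libraries, which does not check the genotype labels because the deletion was made in blood progenitors. Each sample title carries a number, from 26 to 32 in CTR2, CTR4, cKO2 and cKO4 and from 67 to 86 in CTR1, CTR3, cKO1 and cKO3, and the labels do not say what it stands for. Each range thus includes 2 CTR and 2 cKO libraries.

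As a sum, the secreted antagonists of Wnt were expressed in MSPCs at much higher levels than the ligands, mostly through Sfrp4. This did not hold for each gene, since Sfrp2, Frzb, Dkk2 and Sfrp5 stood below the ligands Wnt4 and Wnt5b. Levels of different genes are given here as CPM after TMM scaling, divided by the kilobases of exon of the gene (CPM per kb), as mean ± SD of the 8 libraries. Summed over their members, the antagonists reached 953 ± 89.2 CPM per kb in CTR (SD, n = 4) and 922 ± 77.8 in cKO, the Frizzled, LRP and ROR receptors 174 ± 17.6 and 186 ± 23.6, the R-spondin axis 123 ± 38.1 and 106 ± 18.6, and the ligands 55.2 ± 6.74 and 51.3 ± 10.2. The nuclear effectors summed to 95.2 ± 12.3 in CTR and 83.1 ± 9.44 in cKO. In these 5 groups the ranges of the genotypes overlapped. The membrane and cytoplasmic inhibitors were the exception, with 32.3 to 38.3 CPM per kb in CTR (35.0 ± 2.68) and 28.4 to 30.9 in cKO (29.2 ± 1.13). None of the 5 genes of this group was itself without overlap, beside 2.62% of all genes tested, and the sums were not tested. Nkd2 alone made up on average 42.4% of the sum of this group. In every other group a single gene also held a large share, on average 67.9% for Sfrp4 among the antagonists, 54.8% for Wnt4 among the ligands, 51.7% for Ctnnb1 among the nuclear effectors, 44.6% for Rspo2 in the R-spondin axis and 42.1% for Fzd1 among the receptors.

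**Figure D1:**
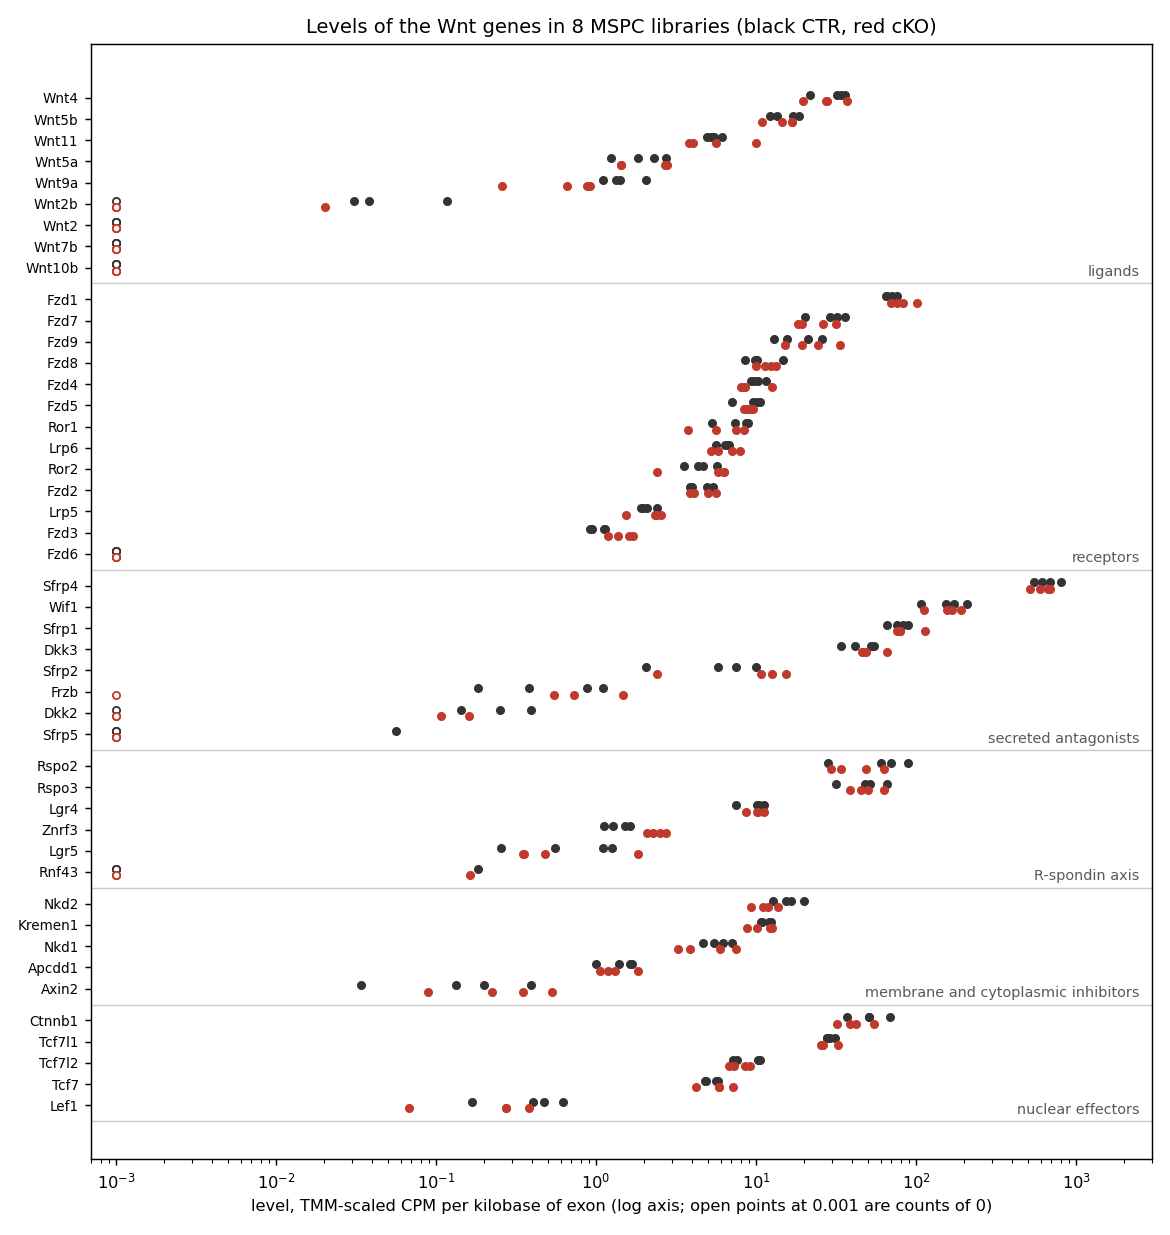
Level of each of the 46 Wnt genes in each library, in TMM-scaled CPM per kilobase of exon on a log axis, grouped by role, with CTR in black and cKO in red and counts of 0 as open points at 0.001. Sfrp4 and Wif1 are the highest genes, and Wnt2, Wnt7b, Wnt10b and Fzd6 are at 0 in all 8 libraries.

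Of the 46 genes, 37 had a count in every library and were tested between genotypes. The other 9 were absent or sparse. Wnt2, Wnt7b and Wnt10b, which encode ligands, and Fzd6, a Frizzled receptor, had 0 counts in all 8 libraries. Sfrp5, an antagonist related to Sfrp1, had 4 counts in CTR4 and 0 elsewhere, and Wnt2b had 0 to 16 counts. Dkk2, a secreted ligand of LRP5 and LRP6, had 0 to 45 counts, and Frzb, also known as Sfrp3, had 0 to 155, with 0 in cKO1. Rnf43, the partner ligase of Znrf3, had 37 counts in CTR1, 35 in cKO1 and 0 in the other 6 libraries. The filter on counts kept these 9 genes out of the test. In the same test without the filter, the 5 genes with any count had unadjusted p-values from 0.124 for Sfrp5 to 0.947 for Rnf43, with 0.912 for Frzb.

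No Wnt gene passed the threshold between cKO and CTR. The quasi-likelihood test of edgeR, adjusted by Benjamini-Hochberg over all 14598 genes tested, gave an adjusted p under 0.05 for 0 of the 37 Wnt genes and for 0 genes in all (0.0%). DESeq2 called 1 Wnt gene, Znrf3, in each of its 3 fits, where 23 (Wald test, 0.158%), 22 (likelihood ratio test, 0.151%) and 47 genes in all (likelihood ratio test with the title number range as a term, 0.335%) were called, and limma-voom called 0. At an unadjusted p under 0.05 in edgeR there were 4 of the 37, or 10.8%, beside 646 of all genes, or 4.43%. These were Znrf3 and Fzd3, with higher values in cKO, where the share of all genes in that direction was 2.35%, and Nkd2 and Wnt9a, with lower values, where it was 2.08%. The genotypes did not overlap for 3 of the 37 (8.11%), beside 2.62% of all genes. These were Znrf3 and Fzd3, above CTR in every cKO library (1.34% of all genes), and Wnt9a, below CTR in every cKO library (1.29%). The Wnt genes were chosen with earlier results of these data known, so that these shares are a description and not a test of the group. The fitted log2 fold change was above 0 for 17 Wnt genes (49.8% of all genes) and below 0 for 20, with a median of -0.035 (all genes, -0.001) and a range from -1.12 to 0.80. The median size of the change regardless of sign was 0.15, and 0.141 over all genes. Within a genotype the median SD was 0.29 on the log2 CPM scale for the Wnt genes and 0.30 for all genes.

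**Figure D2:**
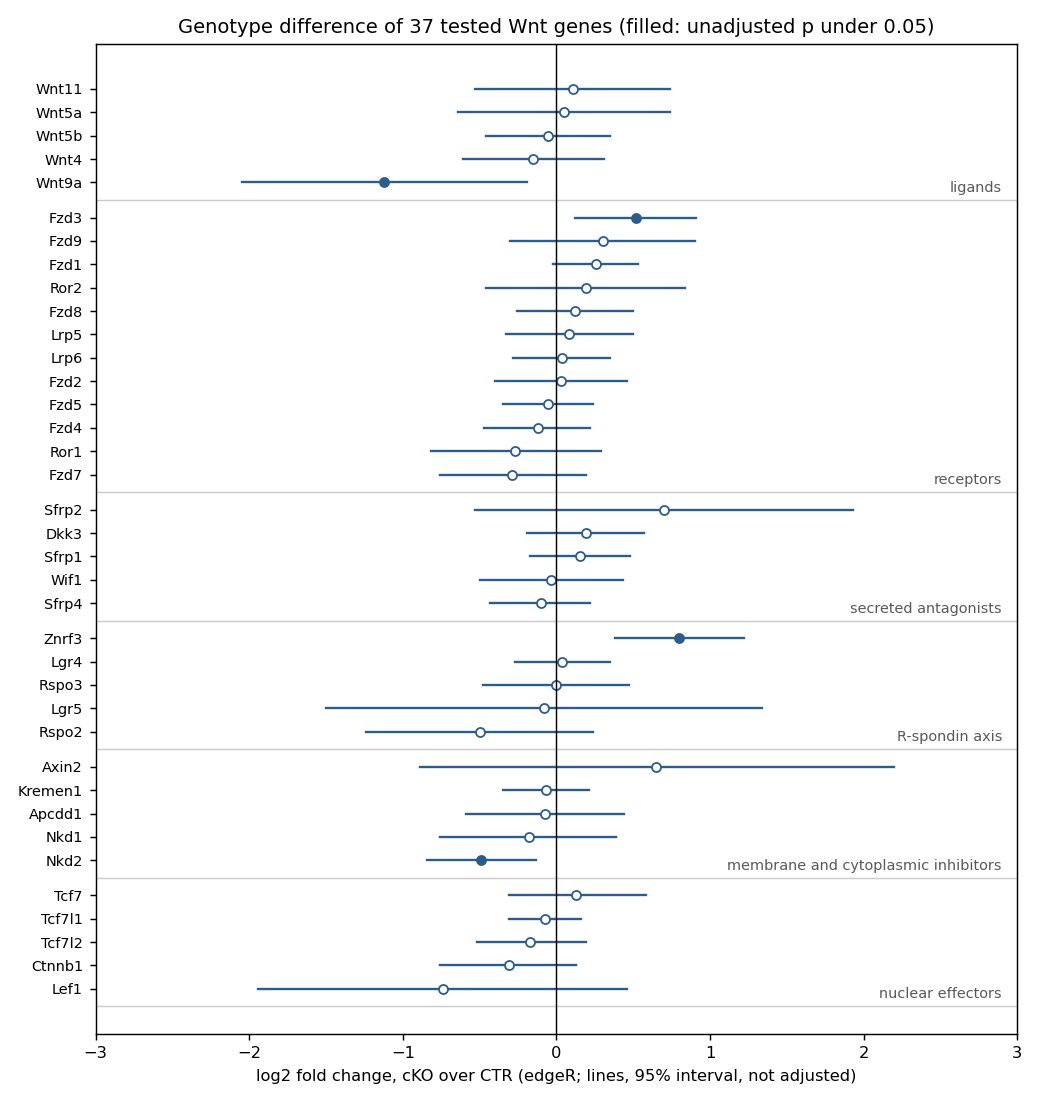
Fitted log2 fold change of cKO over CTR for the 37 tested Wnt genes, ordered by role, with the unadjusted 95% interval from edgeR as a line, and filled points for an unadjusted p under 0.05. The intervals of Znrf3, Fzd3, Nkd2 and Wnt9a exclude 0, and those of Axin2, Lgr5, Lef1 and Sfrp2 are the widest.

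Because RNA was measured from a pool of sorted cells, fewer cells that express a gene and less RNA per cell cannot be told apart in any of these values. Of the marker lists for other cell types, the Schwann list was the one whose genotypes did not overlap. Its 5 genes summed to 39.3 to 45.1 CPM in CTR and 49.0 to 51.1 CPM in cKO, and nearly all of it was S100b, counted 1201 to 1575 times in CTR libraries and 1546 to 1912 times in cKO libraries. Sox10 and Mbp, which mark Schwann cells more closely, had 0 to 33 and 0 to 152 counts. The sums of the smooth muscle and pericyte list overlapped, but its 4 tested genes all had negative log2 fold changes. These were -1.2 for Rgs5, -1.0 for Acta2, -0.82 for Kcnj8 and -0.16 for Tagln, with an adjusted p of 0.999 in edgeR for each. In the chondrocyte list Comp was at -0.64, and Col2a1 and Sox9 were at 0.69 and 0.35. The part of cells that express S100b or any of these markers in the genotype values was not tested.

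Among the ligands, 5 of 9 were tested and 1, Wnt9a, had an unadjusted p under 0.05. Wnt4, a ligand known from kidney and female reproductive tract development, was the highest, at 29.4 ± 6.49 CPM per kb. It measured 134.6, 143.1, 150.6 and 90.8 CPM in CTR1 to CTR4 and 155.7, 115.6, 114.1 and 82.3 CPM in cKO1 to cKO4. The lowest value was in cKO4 and the highest in cKO1, so that the cKO libraries spanned all CTR libraries (log2 fold change -0.15, 95% interval -0.61 to 0.31). Wnt5b, a mostly β-catenin-independent ligand, followed at 15.0 ± 2.68 CPM per kb and did not separate the genotypes either (log2 fold change -0.055, interval -0.46 to 0.35). Wnt11 and Wnt5a, also ligands of the β-catenin-independent branch, stood at 5.65 ± 1.92 and 2.06 ± 0.648 CPM per kb.

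Wnt9a, a ligand that is needed for joint formation, was low and differed most in size. It lies at chr11:59306928-59333552 on the plus strand of GRCm38 and stood at 1.08 ± 0.541 CPM per kb. It measured 4.46, 6.84, 4.69 and 3.67 CPM in CTR1 to CTR4 and 2.91, 3.05, 0.861 and 2.18 CPM in cKO1 to cKO4, from 137 to 223 and from 28 to 107 counts. All cKO libraries lay below all CTR libraries, and cKO3 was the lowest. The log2 fold change was -1.12 (standard error 0.42, 95% interval -2.05 to -0.19, 2.18-fold lower in cKO), with an unadjusted p of 0.0226 and an adjusted p of 0.999 in edgeR. An exact two-sided permutation test of the 8 libraries gave p = 0.0286, the smallest that 4 against 4 allows. Any gene whose groups do not overlap has this value, so that here and below it restates the lack of overlap. The log2 difference was -0.94 within title numbers 26 to 32 and -1.49 within 67 to 86. Leaving out single libraries moved the fitted value between -1.31 and -0.86.

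The sequences just before the transcription start are shown from RefSeq promoters of GRCm38.p6 for 3 members. Wnt9a (chr11:59306680-59306929, plus strand) and Nkd2 (chr13:73847632-73847881, minus strand) are those of the 4 genes named above for genotype that have a window. For Wnt5b (chr6:119449387-119449636, minus strand), described further on for its difference between title numbers, the 1 of 3 windows with a TCF/LEF match is shown. It belongs to a start inside the gene, which spans chr6:119432531-119544347, and use of that start in these cells was not tested. The window before the outermost start (chr6:119544348-119544597) held no match. Each is 250 bases, 5′ to 3′, in lower case. Capitals mark the TCF/LEF core letters CTTTGAT.
Wnt9a: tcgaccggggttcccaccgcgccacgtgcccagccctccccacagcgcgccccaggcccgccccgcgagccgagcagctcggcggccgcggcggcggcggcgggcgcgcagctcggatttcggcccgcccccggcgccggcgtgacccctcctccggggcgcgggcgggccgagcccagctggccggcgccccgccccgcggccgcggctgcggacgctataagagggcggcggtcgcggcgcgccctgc
Nkd2: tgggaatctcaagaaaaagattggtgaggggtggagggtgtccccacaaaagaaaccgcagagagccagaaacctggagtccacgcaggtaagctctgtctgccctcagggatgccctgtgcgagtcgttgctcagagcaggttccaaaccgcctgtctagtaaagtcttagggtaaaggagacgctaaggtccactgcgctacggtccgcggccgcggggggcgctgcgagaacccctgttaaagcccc
Wnt5b: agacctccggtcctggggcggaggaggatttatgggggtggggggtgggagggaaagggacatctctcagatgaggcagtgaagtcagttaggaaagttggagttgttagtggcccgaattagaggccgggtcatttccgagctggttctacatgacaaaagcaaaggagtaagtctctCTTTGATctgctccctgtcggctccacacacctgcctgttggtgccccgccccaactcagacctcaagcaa
The letters CTTTGAA or CTTTGAT, on either strand, occur in 8.65% of all 32851 RefSeq promoter windows (250 bases before to 50 after the start). Of the 46 Wnt genes 29 had a window, and 2 of their 39 windows (5.13%) held a match, in Wnt5b and in Wnt11. The windows of Wnt9a and Nkd2, the other 2 of Wnt5b, and those of Fzd9, Sfrp2 and Wif1 held no match. The Wnt9a sequence is 84.4% G and C, that of Nkd2 58.4% and that of Wnt5b 55.6%.

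Of the 13 receptors 12 were tested, and Fzd3 had an unadjusted p under 0.05. Fzd1, a Frizzled receptor that signals through β-catenin, was the highest at 75.8 ± 12.1 CPM per kb. It measured 317.8, 275.0, 270.4 and 296.4 CPM in CTR1 to CTR4 and 426.4, 348.0, 318.2 and 291.6 CPM in cKO1 to cKO4. The first 3 cKO libraries were above all CTR libraries and cKO4 was not (log2 fold change 0.26, 95% interval -0.023 to 0.53, unadjusted p = 0.0686 and adjusted p = 0.999 in edgeR). Fzd7, a close relative of Fzd1, stood at 26.6 ± 6.68 CPM per kb. It measured 163.1, 91.2, 130.4 and 146.0 CPM in CTR1 to CTR4 and 119.3, 88.2, 83.1 and 144.0 CPM in cKO1 to cKO4, and the genotypes overlapped (log2 fold change -0.29, interval -0.76 to 0.19). The co-receptors Lrp6 and Lrp5 differed little, with log2 fold changes of 0.033 and 0.082.

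Fzd3, a Frizzled receptor known for axon guidance and planar cell polarity, was among the low receptors, at 1.25 ± 0.29 CPM per kb. It lies at chr14:65192449-65262463 on the minus strand. The CTR libraries measured 12.1, 14.3, 14.6 and 11.7 CPM and the cKO libraries 17.5, 15.3, 20.7 and 21.7 CPM. All cKO libraries were above all CTR libraries, though cKO2 was close to CTR3. The log2 fold change was 0.52 (standard error 0.18, 95% interval 0.12 to 0.91, 1.43-fold), with an unadjusted p of 0.0165 and an adjusted p of 0.999 in edgeR and an exact permutation p of 0.0286. The log2 difference was 0.50 within 26 to 32 and 0.52 within 67 to 86, and the fit gave 0.44 to 0.60 when single libraries were omitted.

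The secreted antagonists had no member at an unadjusted p under 0.05 among 5 tested. Sfrp4, a decoy for Wnts whose loss is known to thin cortical bone, stood at 639 ± 93.8 CPM per kb and was the 47th highest of all genes by this measure. It measured 2565.2, 2851.5, 3376.5 and 2266.4 CPM in CTR1 to CTR4 and 2147.5, 2884.9, 2476.8 and 2788.0 CPM in cKO1 to cKO4. The lowest value was in cKO1 and the highest in CTR3, with the other 6 libraries between (log2 fold change -0.10, 95% interval -0.43 to 0.22). Wif1, which binds Wnts directly, was second at 158 ± 35.0 CPM per kb and had a log2 fold change of -0.035 (interval -0.50 to 0.43). Sfrp1 and Dkk3 followed at 82.7 ± 13.8 and 48.6 ± 9.46 CPM per kb. Dkk3 is the divergent member of the Dickkopf family.

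In the R-spondin axis, 5 of 6 genes were tested and Znrf3 had the smallest p of all Wnt genes. The R-spondins Rspo2 and Rspo3, which strengthen Wnt signals by blocking ZNRF3 and RNF43, were the highest of the group at 52.8 ± 21.6 and 49.1 ± 11.2 CPM per kb. Rspo2 varied widely between mice, with 358.0, 143.2, 309.2 and 453.3 CPM in CTR1 to CTR4 and 250.3, 172.6, 150.7 and 319.9 CPM in cKO1 to cKO4. CTR2 was the lowest and CTR4 the highest of the 8, so that the CTR libraries spanned all cKO libraries (log2 fold change -0.50, 95% interval -1.24 to 0.24). Rspo3 measured 159.6, 98.1, 147.8 and 202.1 CPM in CTR1 to CTR4 and 193.3, 118.8, 154.3 and 140.7 CPM in cKO1 to cKO4, with no shift between genotypes in the fit (log2 fold change -0.0011, interval -0.48 to 0.47). It shares 404 bases of exon with the antisense gene Gm48159, whose reads cannot be told apart from those of Rspo3 if strand was not used in counting. Lgr4, an R-spondin receptor, stood at 9.95 ± 1.26 CPM per kb, and its relative Lgr5 at 0.772 ± 0.561.

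Znrf3, the ubiquitin ligase that clears Frizzled and LRP6 from the cell surface, lies at chr11:5276324-5444847 on the minus strand and stood at 1.89 ± 0.594 CPM per kb. It measured 10.0, 12.8, 8.82 and 11.9 CPM in CTR1 to CTR4 and 16.5, 21.5, 17.8 and 19.9 CPM in cKO1 to cKO4, from 284 to 443 and from 538 to 764 counts. The lowest cKO library was above the highest CTR library, and the title numbers 26 to 32 gave the 2 higher values in both genotypes. The log2 fold change was 0.80 (standard error 0.19, 95% interval 0.38 to 1.22, 1.74-fold), with an unadjusted p of 0.00159 and an adjusted p of 0.999 in edgeR and an exact permutation p of 0.0286. The log2 difference was 0.75 within 26 to 32 and 0.86 within 67 to 86, and the fit gave 0.71 to 0.88 when single libraries were omitted. DESeq2 gave an adjusted p of 0.013 in the Wald test, 0.0155 in the likelihood ratio test and 0.000177 with the title number range as a term, where edgeR with the same term gave 0.666. The call on Znrf3 thus differed between tools, and its fold change did not.

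All 5 membrane and cytoplasmic inhibitors were tested, and Nkd2 had an unadjusted p under 0.05. Nkd2, a Naked cuticle protein that binds Dishevelled, lies at chr13:73818534-73847631 on the minus strand and stood at 13.8 ± 3.34 CPM per kb. It measured 73.8, 95.6, 79.4 and 61.6 CPM in CTR1 to CTR4 and 45.1, 57.1, 53.0 and 66.5 CPM in cKO1 to cKO4. The genotypes overlapped in 1 pair, since CTR4 was below cKO4. The log2 fold change was -0.49 (standard error 0.16, 95% interval -0.84 to -0.13, 1.40-fold lower in cKO), with an unadjusted p of 0.0117 and an adjusted p of 0.999 in edgeR and an exact permutation p of 0.0571. The log2 difference was -0.32 within 26 to 32 and -0.65 within 67 to 86, and the fit gave -0.59 to -0.37 when single libraries were omitted. Kremen1, a receptor for Dickkopf proteins, stood at 11.2 ± 1.29 CPM per kb and measured 84.1, 95.2, 92.5 and 82.7 CPM in CTR1 to CTR4 and 78.7, 94.2, 96.7 and 68.1 CPM in cKO1 to cKO4. Its genotypes overlapped (log2 fold change -0.07, interval -0.35 to 0.21).

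**Figure D3:**
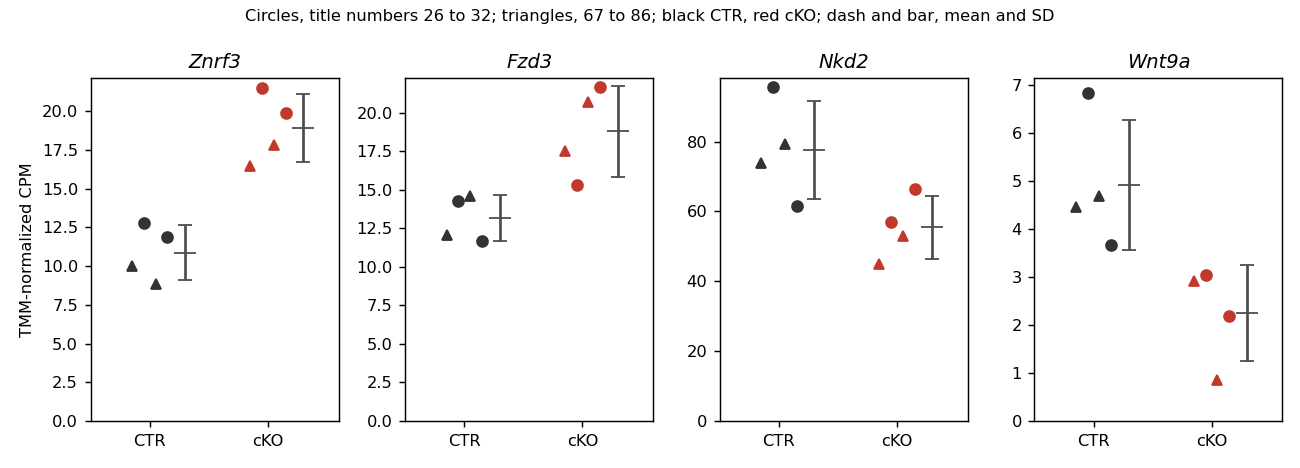
TMM-normalized CPM of Znrf3, Fzd3, Nkd2 and Wnt9a in each library by genotype, with circles for title numbers 26 to 32, triangles for 67 to 86, and a dash and bar for the mean and SD of 4 libraries. The cKO libraries lie above CTR for Znrf3 and Fzd3 and below for Wnt9a, and for Nkd2 CTR4 lies below cKO4.

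The nuclear effectors had no member at an unadjusted p under 0.05 among 5 tested. Ctnnb1, which encodes β-catenin, stood at 46.7 ± 11.7 CPM per kb. It measured 264.0, 263.6, 193.0 and 354.3 CPM in CTR1 to CTR4 and 217.7, 165.8, 283.3 and 199.3 CPM in cKO1 to cKO4 (log2 fold change -0.31, 95% interval -0.76 to 0.13). The genotypes overlapped, and the log2 difference was -0.75 within title numbers 26 to 32 and 0.14 within 67 to 86. Ctnnb1 shares 759 bases of exon with the antisense gene Ulk4, which had 2192 to 3380 counts. Tcf7l1, the TCF that acts mainly as a repressor, stood at 28.2 ± 2.56 CPM per kb and varied less, with 121.7, 109.6, 113.9 and 108.5 CPM in CTR1 to CTR4 and 127.8, 100.7, 102.1 and 100.4 CPM in cKO1 to cKO4. The highest value was in cKO1 and the other 3 cKO libraries were below all CTR libraries (log2 fold change -0.074, interval -0.31 to 0.16). Tcf7l2 and Tcf7 stood lower, at 8.41 ± 1.47 and 5.52 ± 0.909 CPM per kb, and Lef1, an activating member, at 0.333 ± 0.174.

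Several of these genes are themselves known targets that β-catenin raises, and their fold changes did not share a sign. Beside Znrf3 at 0.80, the log2 fold changes were 0.65 for Axin2, the scaffold of β-catenin destruction, 0.13 for Tcf7, -0.08 for both Apcdd1 and Lgr5, -0.18 for Nkd1 and -0.74 for Lef1. These 7 genes were picked out after their values were seen, and no test was made over them. Only Znrf3 had a 95% interval that excluded 0, so that the signs of the others are uncertain. For Lef1, with 23 to 168 counts, the interval was -1.94 to 0.46. Axin2 was too sparse for a firm value, with 7 to 113 counts, a level of 0.244 ± 0.169 CPM per kb and a 95% interval from -0.89 to 2.20. Its log2 difference was 2.46 within title numbers 26 to 32 and -0.94 within 67 to 86. For Lef1 the differences were -0.76 and -0.86, and for Tcf7 they were 0.42 and -0.20.

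**Figure D4:**
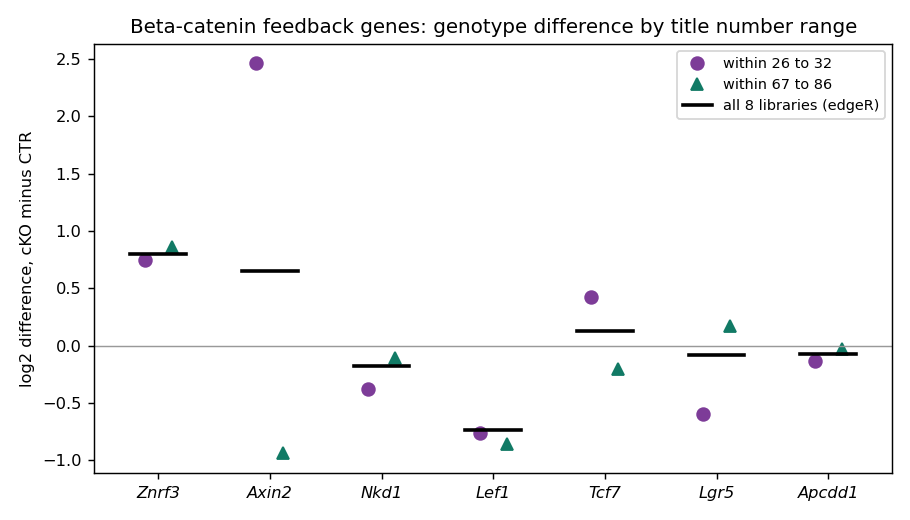
Log2 difference of cKO and CTR for 7 genes known as β-catenin targets, within title numbers 26 to 32 (circles), within 67 to 86 (triangles) and fitted over all 8 libraries by edgeR (bars). Znrf3 and Lef1 lie on opposite sides of 0 in both ranges, and Axin2, Tcf7 and Lgr5 change sign between the ranges.

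The rest of the pathway was read from a second list of 83 genes, of which 82 were in the table and 55 were tested. By edgeR, 0 of the 55 passed an adjusted p of 0.05 and 3 (5.45%) an unadjusted p of 0.05. DESeq2 and limma-voom also called 0. The 3 were Axin1, a scaffold of β-catenin destruction, at 0.26, and the targets Ccn4 and Jun at -0.81 and -0.51 on the log2 scale, and for none of the 55 were the genotypes without overlap. The median log2 fold change was 0.024, with 30 genes above 0 and 25 below. Of the 10 other ligands, 1 (Wnt6) was counted in every library, and 8 were at 0 in all. Sost, which encodes the osteocyte inhibitor sclerostin, was at 0 in all libraries, and Dkk1 had at most 13 counts. The genes for ligand secretion, Porcn and Wls, stood at 21.9 and 37.5 CPM per kb, and 16 of 16 genes of the destruction complex and Dishevelled were tested, with log2 fold changes from -0.31 to 0.26.

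The title numbers are described last, as a second way in which the libraries differ. With genotype and title number range in 1 model, 0 of the 37 genes had an adjusted p under 0.05 for the range in edgeR, beside 2 of 14598 genes (0.0137%). DESeq2 called 2, Fzd9 and Wnt5b, in the Wald test (380 of all genes, 2.76%) and 1, Fzd9, in the likelihood ratio test (342, 2.44%), and limma-voom called 0. At an unadjusted p under 0.05 edgeR gave 4 of the 37 (10.8%), beside 11.6% of all genes. Of these, 2 were higher in 67 to 86 (5.1% of all genes) and 2 lower (6.5%). The ranges did not overlap for 2 (5.41%), beside 6.87% of all genes, namely Fzd9, higher in 67 to 86 (3.43%), and Wnt5b, lower (3.45%). Of the 55 other pathway genes tested, 11 (20.0%) had an unadjusted p under 0.05 for the range, with a smallest adjusted p of 0.208 in edgeR, and 5 (9.09%) did not overlap. The summed osteoblast markers were also split, with 11354.6 to 14339.0 CPM in numbers 26 to 32 and 8298.5 to 10993.1 CPM in 67 to 86. Nearly all of this sum was Ibsp (10748.1 to 13797.7 and 7756.5 to 10368.1 CPM, log2 fold change -0.44). Of the other tested markers of the list, Dmp1 (-0.67) and Col1a1 (-0.19) had the same sign. Sp7 (0.43), Car3 (0.78), Phex (0.32) and Bglap (0.96) had the opposite sign. Markers of other lists had smaller p-values between ranges in edgeR than Ibsp. These were Rgs5 (-1.49), Hbb-bs (0.89) and Adipoq (0.45), with adjusted p-values of 0.112, 0.177 and 0.204 in edgeR. The part of any of these cells in the title number values was not tested.

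Fzd9, a Frizzled receptor that osteoblasts need for bone formation, was higher in numbers 67 to 86. It measured 59.1, 48.4, 77.1 and 56.0 CPM in CTR1, CTR3, cKO1 and cKO3 and 29.5, 35.8, 34.9 and 44.5 CPM in CTR2, CTR4, cKO2 and cKO4. Each of the former was above each of the latter, and in both ranges the highest value came from a cKO library. The log2 fold change was 0.73 (95% interval 0.40 to 1.07, 1.66-fold), with an unadjusted p of 0.000765 and an adjusted p of 0.151 in edgeR and an exact permutation p of 0.0286. DESeq2 gave an adjusted p of 0.0016 in the Wald test and 0.00187 in the likelihood ratio test.

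Wnt5b, the second highest ligand, was lower in numbers 67 to 86. It measured 35.6, 32.5, 38.3 and 29.1 CPM in CTR1, CTR3, cKO1 and cKO3 and 49.3, 45.2, 44.8 and 44.3 CPM in the libraries numbered 26 to 32. The ranges did not overlap, and the libraries numbered 26 to 32 were close together. The log2 fold change was -0.44 (95% interval -0.71 to -0.17, 1.35-fold lower in 67 to 86), with an unadjusted p of 0.005 and an adjusted p of 0.237 in edgeR and an exact permutation p of 0.0286, and DESeq2's Wald test gave an adjusted p of 0.0477.

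The antagonists Sfrp2 and Wif1 also had an unadjusted p under 0.05 between title numbers, and both overlapped. Sfrp2, a relative of Sfrp1 and Sfrp4, measured 21.4, 16.2, 33.2 and 27.0 CPM in CTR1, CTR3, cKO1 and cKO3 and 12.4, 4.41, 23.1 and 5.20 CPM in CTR2, CTR4, cKO2 and cKO4 (log2 fold change 1.12, 95% interval 0.092 to 2.15, unadjusted p = 0.0359 and adjusted p = 0.396 in edgeR). Sfrp2 shares 347 bases of exon with the antisense gene Gm26771, which had 46 to 169 counts. Its own lowest counts were 165 in CTR4 and 200 in cKO4. Within either range the mean of Sfrp2 was higher in cKO, by 0.56 in 26 to 32 and 0.68 in 67 to 86 on the log2 scale. The genotypes overlapped within 26 to 32 and over all 8 libraries. Within 67 to 86 they did not, but 2 libraries of each genotype are too few for this to be read as a difference. Wif1 measured 417.0, 259.9, 377.4 and 270.6 CPM in CTR1, CTR3, cKO1 and cKO3 and 503.3, 374.6, 406.2 and 462.9 CPM in the others (log2 fold change -0.40, interval -0.79 to -0.006, unadjusted p = 0.0473 and adjusted p = 0.424 in edgeR). Znrf3 had the fifth smallest adjusted p, 0.454 in edgeR, with a log2 fold change of -0.33 between the ranges.

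**Figure D5:**
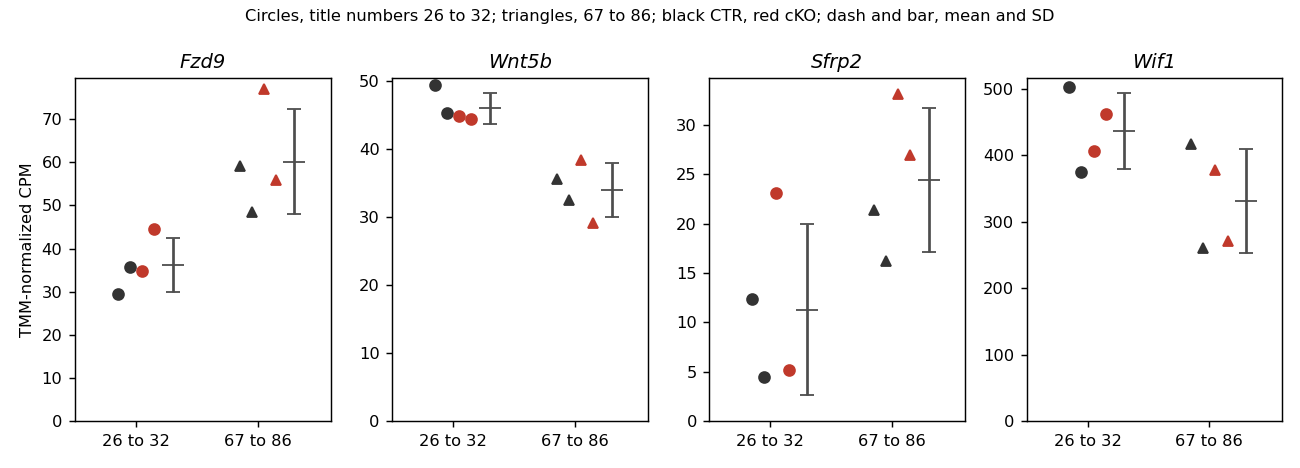
TMM-normalized CPM of Fzd9, Wnt5b, Sfrp2 and Wif1 in each library by title number range, with CTR in black, cKO in red, and a dash and bar for the mean and SD of 4 libraries. The ranges do not overlap for Fzd9 and Wnt5b and overlap for Sfrp2 and Wif1.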

How the data were processed

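RNA of MSPCs from 8 mice was sequenced as poly(A) libraries. Per the methods, reads were trimmed and aligned with HISAT2 to GRCm38 (mm10), and the authors deposited the HTSeq-count values of each gene as raw counts, with no normalization. In the table the values 3, 5 and 7 occur 4848, 3253 and 2314 times and 4, 6 and 8 occur 2602, 1856 and 1442 times, so that the counting settings are uncertain and low counts may not be single fragments. Tool versions and use of strand are not given in the sources used here. Per the methods, the authors tested genes with the likelihood ratio test of DESeq2 and corrected for a batch. The labels do not identify this batch, so that title numbers stand as an alternative term. Symbols, exons and coordinates came from GENCODE M21, another release than the authors', and 52403 of 52636 identifiers matched.

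With TMM scaling, edgeR 4.0.16 in R 4.3.3 (glmQLFit, glmQLFTest, Benjamini-Hochberg, threshold 0.05) was run over all 8 libraries on the 14598 genes that had at least 1 count in each. This filter removes genes silent in 1 genotype. Permutation tests enumerated all 70 assignments of log2 CPM (prior count 2). Alternatives were other scalings and filters, DESeq2 1.42.0, limma-voom (limma 3.58.1), a title number term, a replicate block, and each library left out. Scripts were tested on simulated data.

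The members and lists were chosen with earlier results of these data known. Genes named with values per library were the 2 highest per length in each role, those with an unadjusted p under 0.05 or non-overlapping genotypes, and the 5 with the smallest adjusted p between title numbers. Single-cell data were not used here, and some genes of the marker lists are not reported here.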

Additional observations from a re-analysis of the deposited data

Results flagged for a closer look

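Of 34 groups of 4 libraries examined among the 17 named members, 1 held a library apart from the rest. For Tcf7l1 the gap between cKO1 (127.8 CPM) and the next cKO library (102.1 CPM) was 0.932 of the range of the 4 cKO libraries on the log2 CPM scale. Chance alone gives about 1.7 such groups among 34.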

How the results depend on the processing

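The number of genes called between cKO and CTR was 0 in edgeR and became 1 with no filter, 1 with filterByExpr, 23, 22 and 47 in the DESeq2 Wald, likelihood ratio and likelihood ratio with title number range fits, and 0 to 0 with a library left out. Wnt genes called were 1 in each DESeq2 fit, and those at an unadjusted p under 0.05 in edgeR were 4 to 6 with a library left out. The share of all genes in those fits is not given here, so that a rise to 6 cannot be read as particular to the Wnt genes. Between title numbers, 2 genes were called, 1 with DESeq2 size factors, 4 with no filter, 380 and 342 by the DESeq2 tests, and 0 to 4 with a library left out, and 2 and 1 Wnt genes by the DESeq2 tests. Values of single genes between title numbers under these alternatives were added after seeing the data. Of 306 values of the 17 named members between genotypes, 289 kept their sign and stayed uncalled, 3 (Znrf3) were called by DESeq2, and 14, in 5 members near 0, turned sign. Wnt5b became 0.044 without CTR2 and 0.063 without cKO3, Sfrp4 0.003 without CTR3, Kremen1 0.021 without cKO4, and Wif1 7.4e-05 without CTR1, 0.11 without CTR2 and 0.096 without cKO3. Rspo3 became 0.0024 with no filter, 0.019 in limma-voom, and 0.024, 0.16, 0.097 and 0.033 without CTR1, CTR4, cKO2 and cKO4. The causes were not tested. With each library left out, the ranges were -0.15 to 0.063 for Wnt5b, -0.19 to 0.003 for Sfrp4, -0.19 to 0.11 for Wif1, -0.17 to 0.16 for Rspo3 and -0.14 to 0.021 for Kremen1. The median over the Wnt genes lay between -0.04 and 0.029 with a library left out. Per kb of the longest transcript, levels moved to 80.8 for Rspo2, 17.8 for Kremen1, 67.0 for Ctnnb1, 36.4 for Tcf7l1, 19.9 for Tcf7l2, 0.799 for Lef1, 1.65 for Lgr5 and 92.7 for Wls.

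With the replicate number as a block, 7 Wnt genes had an unadjusted p under 0.05, beside 5.56% of all genes, and Rspo3 was at 0.024. The 3 that joined were Sfrp2 and Fzd9, higher in cKO in 4 of 4 same-numbered pairs, and Fzd1, higher in 3 of 4. The unadjusted edgeR values went from 0.233 to 0.00972, from 0.295 to 0.019 and from 0.0686 to 0.0404, and the adjusted p was 0.88 for each. The labels do not say what a shared number means. Same-numbered libraries have neighbouring title numbers (78 and 86, 32 and 31, 71 and 67, 27 and 26), and deviations of same-numbered libraries correlated at 0.131, 0.176, 0.0844 and 0.0572, with 7 of 8 libraries closest to their own number. Each such pair also lies in the same title number range, and the 8 comparisons draw on the same correlations. A shared number and a shared range were not tested apart. Counting error is larger where counts fell to 7 (Axin2), 23 (Lef1) or 28 (Wnt9a), while Lgr5, with 85 to 608 counts, had SDs of 1.05 and 1.13 on the log2 CPM scale. The lone library of 1 genotype and range left by an omission is assumed to vary like the others.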
